A study of Mus musculus with 12 samples.

Results

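The Zfp genes are mouse genes for zinc finger proteins that carry the symbol Zfp and a number. They were taken as every gene whose symbol in the array's annotation is Zfp followed only by digits, without Zfp36, which encodes an RNA-binding protein of another zinc finger class. This gave 156 of the 12394 genes that had a probe set naming 1 gene, from 231 of the 22690 probe sets, and where a gene had several probe sets the brightest was used. The mice were wild-type C57BL/6 females, 10 weeks old, and RNA of their spinal cords was hybridised to 12 Affymetrix arrays, with 3 biological replicates in each of 4 groups. Injured mice had an 80% cut across the cord after laminectomy, and sham mice had the laminectomy alone; the sample titles call these controls naive, and they are called sham here. Cord tissue of 2.5 cm around the site was taken 9 hours after the operation. Total RNA was prepared from part of each Dounce homogenate, and polysome-bound RNA, which is mRNA carrying several ribosomes, was collected from the rest on a sucrose gradient, so that the groups were polysome-bound RNA of injured and of sham cord and total RNA of injured and of sham cord. The labels do not say whether equal replicate numbers mark the same animals.

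Most Zfp proteins bind DNA through arrays of C2H2 zinc fingers, short loops each held by a zinc ion, and many also carry a KRAB domain. The KRAB domain recruits the scaffold Trim28, which brings the histone methyltransferase Setdb1, heterochromatin proteins and deacetylase complexes to the bound site, and in this way many of these proteins silence transposable elements and imprinted loci. Several proteins named Zfp do other work, in RNA processing, on ribosomes, at the mitotic spindle or in protein modification, so the name marks zinc finger proteins and not a uniform set of transcription factors. RefSeq (GRCm38.p6) lists all 156 genes.

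The sequences just upstream of the transcription start are shown for the 2 largest rises (Zfp638, Zfp281) and the 2 largest falls (Zfp445, Zfp444) in total RNA after injury, so that genes that moved in opposite directions can be read side by side. The 250 bases before the start are given 5′ to 3′ on the gene's strand, from RefSeq on GRCm38.p6, with matches to the motifs searched in capitals. The windows lie at chr6:83914103-83914352 (plus strand, Zfp638), chr1:136624651-136624900 (plus strand, Zfp281), chr9:122866007-122866256 (minus strand, Zfp445) and chr7:6172263-6172512 (plus strand, Zfp444).
Zfp638: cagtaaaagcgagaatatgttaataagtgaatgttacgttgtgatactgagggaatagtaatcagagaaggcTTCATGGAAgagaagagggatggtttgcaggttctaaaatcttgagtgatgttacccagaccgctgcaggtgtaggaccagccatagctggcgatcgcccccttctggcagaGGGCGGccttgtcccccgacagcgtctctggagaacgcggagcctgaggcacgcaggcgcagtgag
Zfp281: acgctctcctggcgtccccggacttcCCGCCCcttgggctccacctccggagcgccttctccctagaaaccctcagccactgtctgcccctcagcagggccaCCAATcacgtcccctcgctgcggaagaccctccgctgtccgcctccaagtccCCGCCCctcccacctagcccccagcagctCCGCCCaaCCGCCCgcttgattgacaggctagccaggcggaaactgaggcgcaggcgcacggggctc
Zfp445: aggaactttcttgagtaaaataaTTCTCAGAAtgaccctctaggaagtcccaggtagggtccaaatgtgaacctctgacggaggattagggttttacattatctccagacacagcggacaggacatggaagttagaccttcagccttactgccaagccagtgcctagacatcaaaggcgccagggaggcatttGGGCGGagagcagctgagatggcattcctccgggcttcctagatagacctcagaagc
Zfp444: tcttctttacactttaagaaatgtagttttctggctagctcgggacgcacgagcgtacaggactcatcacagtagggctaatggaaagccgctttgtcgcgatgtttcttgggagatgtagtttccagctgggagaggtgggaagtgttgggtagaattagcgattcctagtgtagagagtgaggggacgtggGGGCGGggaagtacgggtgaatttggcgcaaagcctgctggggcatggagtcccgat
The Zfp281 window held 4 matches to the SP motif GGGCGG and 1 to the NF-Y motif CCAAT, whereas the windows of Zfp638, Zfp445 and Zfp444 held 1 SP match each. By their brightest probe sets Zfp638 and Zfp445 moved in opposite directions in total RNA, while their second probe sets gave 0.05 each, neither called. The window of each also held 1 match to the STAT motif TTCNNNGAA. Windows of this kind existed for 126 of the 156 genes, some with several starts, which gave 154 windows. Counted on both strands, the ETS motif CCGGAAG was in 16.2% of them against 6.91% of all 32851 windows, CCAAT in 45.5% against 33.8%, GGGCGG in 45.5% against 32.7% and TTCNNNGAA in 14.3% against 7.02%. The AP-1 motif TGANTCA was in 4.55% against 6.75%, the CRE motif TGACGTCA in 0.649% against 1.55%, the YY1 motif AAGATGGC in 1.95% against 1.56% and the E-box CACGTG in 5.84% against 6.02%. These are matches of letters; the STAT and SP matches did not overlap in the windows shown.

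Signal is given on the log2 scale of the deposited values. The mean over the 12 arrays had a median of 7.30 for the Zfp genes (range 5.79 to 10.90), against 7.91 for the other 12238 genes, whose highest value was 13.95. In all, 8 Zfp genes (5.13%) were in the brightest 25% of all genes, against 25.3% of other genes, while 34 (21.8%) were in the dimmest 25%, against 25% of other genes. Their signal was thus concentrated in the lower middle of the range. Signal of different probe sets also depends on the probes, so it is not a measure of how much of each mRNA was present, and it was used to place genes beside others of the same signal. As a background, the highest of 27 probe sets for Bacillus subtilis genes, absent from the mouse, averaged 6.70 over the arrays. The mean of 122 Zfp genes (78.2%) was above it, against 75.1% of other genes; 102 (65.4%) exceeded it on all 12 arrays, against 68.1%, and 23 on none. The 5 brightest were Zfp622, Zfp612, Zfp106, Zfp91 and Zfp871.

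**Figure D1:**
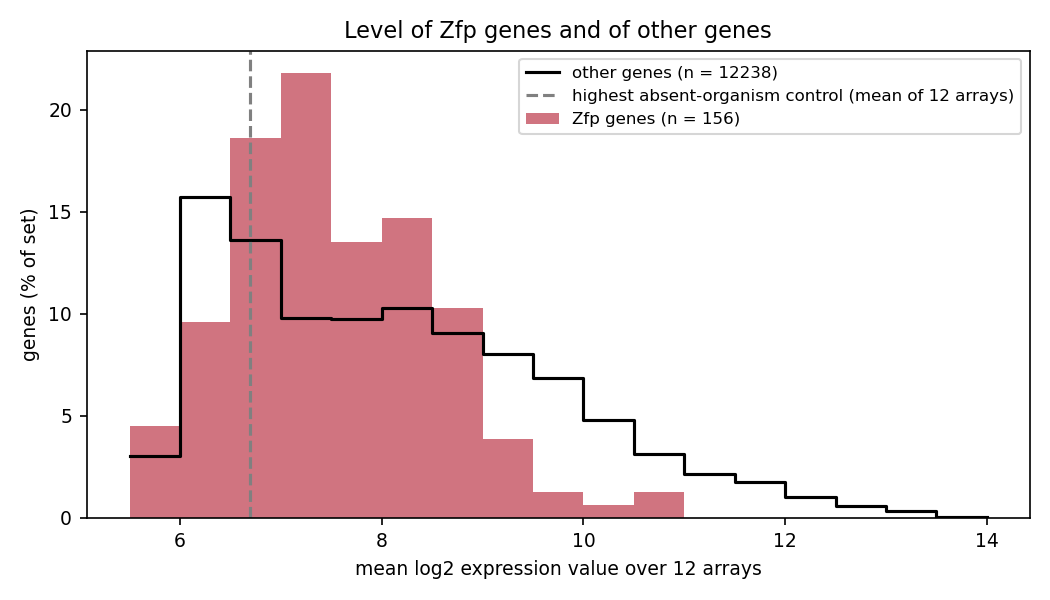
Share of genes (percent of each set) by mean log2 expression value over 12 arrays, in steps of 0.5, for 156 Zfp genes (red bars) and 12238 other genes (black line). The dashed line is the highest absent-organism control, 6.70; the Zfp genes peak between 7 and 7.5, with 21.8% of them against 9.77% of other genes, and none is above 11.

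Array quality differed between the groups. The 3′ minus 5′ difference of the Gapdh control probe sets, which grows when RNA is shortened or copied incompletely, was 2.83 ± 0.27 in injured and 0.87 ± 0.03 in sham polysome-bound RNA (log2, SD, n = 3 each). For total RNA it was 1.40 ± 0.22 in injured and 0.23 ± 0.05 in sham cord. The median of all probe sets was 7.18, 7.25, 7.78 and 7.76 in the same order, so polysome arrays were dimmer throughout, and the spread gave injured polysome replicates 1 and 2 array weights of 0.24 and 0.52 against 0.96 to 1.88 for the other arrays. Arrays of a group correlated at 0.994 to 0.998. The tissue expressed the neuron, oligodendrocyte and astrocyte markers (9, 6 and 8 measured, each above the controls on all arrays). Of 9 monocyte and neutrophil markers, 7 rose in total RNA after injury and 0 fell, and their summed linear signal was 5588 to 8893 on injured and 2743 to 3472 on sham total arrays (2083 to 3884 on injured and 1769 to 2043 on sham polysome arrays). On polysomes 5 of these 9 rose and 1 fell. Of the astrocyte markers 6 rose and 0 fell in total RNA, and 4 rose and 3 fell on polysomes; of the neuron markers 6 rose and 2 fell in total RNA, and 2 rose and 2 fell on polysomes. Of the oligodendrocyte markers 0 rose in either fraction, while 1 fell in total RNA and 2 on polysomes, and of 4 microglia markers 0 rose in either, while 2 fell in total RNA and 3 on polysomes. The 3 erythroid markers lay near the controls, none above them on all arrays. The part of these shifts in the results on the Zfp genes was not tested, and in whole tissue a change in cell number and a change of RNA per cell cannot be told apart.

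Total RNA was compared first, to ask which Zfp transcripts changed in amount after injury. In injured cord 52 Zfp genes were higher and 26 lower than in sham cord, and 78 were not called. Among all genes 35.4% were called higher and 23.1% lower, so the 33.3% of Zfp genes called higher was close to the background and the 16.7% called lower was below it. Of the 34 Zfp genes with a mean below the highest absent control, 3 were called higher and 11 lower, against 3.15% and 50.4% of other genes of that signal. Of the 122 above it, 49 were called higher and 15 lower (40.2% and 12.3%, against 34% and 20.8%). Other genes in the same bins of mean signal as all 156 were called higher in 27.3% and lower in 27.3% of cases. For 105 of the 156 Zfp genes the signed log2 change lay above the median of their bin, which was negative in the dimmer bins. All changes were small: the median was 0.05 on the log2 scale (range -0.79 to 0.56), the same 0.05 as over all genes and 0.05 above genes of the same signal, and no Zfp gene changed 2-fold. The test was limma with Benjamini-Hochberg adjustment over all 12394 genes at 0.05, and 97 Zfp genes had no overlap between injured and sham arrays (70.5% of all genes). After quantile normalization over 12 arrays 41 rose and 15 fell, or 26.3% and 9.62% of the Zfp genes, against 19.3% and 15% of all genes under that scaling.

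The largest rise was that of Zfp638, whose product is a nuclear protein that binds RNA and DNA. Its log2 values were 9.42, 9.33 and 9.46 in injured total RNA, against 8.90, 8.79 and 8.85 in sham total RNA. All injured arrays were above all sham arrays, by 0.56 (SE 0.07, limma adjusted p = 2.2e-05), or 1.47-fold. A second probe set of Zfp638, also above the controls on most arrays, gave 0.05, so the rise depends on the brightest probe set. Zfp281, a transcription factor known from pluripotent cells, was at 9.44, 9.48 and 9.38 in injured and 8.95, 8.87 and 8.89 in sham total RNA. It rose by 0.53 (SE 0.07, adjusted p = 5.5e-05) without overlap, and the second probe set rose by 0.71. Zfp24, which mice need for oligodendrocytes to mature and form myelin, was at 9.44, 9.44 and 9.40 in injured and 8.96, 8.79 and 8.97 in sham total RNA, higher by 0.52 (SE 0.09, adjusted p = 0.0002). The 3 remaining probe sets gave 0.24, -0.01 and -0.03. Zfp871 was at 10.34, 10.24 and 10.21 in injured and 9.77, 9.75 and 9.73 in sham total RNA, a rise of 0.52 (SE 0.06, adjusted p = 8.1e-06) with a narrow spread in both groups. Zfp52 rose by 0.53 (SE 0.05, limma adjusted p = 1.5e-06), at 7.73, 7.80 and 7.63 in injured against 7.21, 7.20 and 7.16 in sham total RNA. A second, dimmer probe set gave -0.07, but was not above the controls on any array.

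The falls were fewer. Zfp445, a KRAB zinc finger protein that with Zfp57 maintains imprints, was at 8.01, 7.88 and 8.18 in injured total RNA, against 8.77, 8.78 and 8.90 in sham total RNA. The groups were far apart: it fell by 0.79 (SE 0.11, adjusted p = 3.8e-05), to 0.577 of sham, which was the largest change of any Zfp gene in either injury comparison. Its second probe set, of nearly the same signal, gave 0.05 in total RNA, so the 2 probe sets did not report the same change. Zfp444 was at 6.85, 6.81 and 6.89 in injured total RNA, above the highest absent control on 1 of the 3 arrays, against 7.42, 7.44 and 7.42 in sham total RNA. It fell by 0.57 (SE 0.04, limma adjusted p = 2.9e-07). Its second probe set gave a fall of 0.33, but was above the controls on only 7 of the 12 arrays, so the size of that fall is uncertain. Zfp219, a cofactor of Sox9 in cartilage cells, fell by 0.40 (SE 0.07, adjusted p = 0.00019), with 8.29, 8.30 and 8.48 in injured and 8.77, 8.72 and 8.78 in sham total RNA. Zfp358 fell by 0.38 (adjusted p = 7.5e-05) and Zfp777 fell by 0.34 (adjusted p = 0.00018), neither with overlapping groups.

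Many Zfp genes have several probe sets, and these often gave different answers. Of the 53 with 2 or more, 31 were called in total RNA by the brightest probe set; the second brightest was called the same way for 9, the opposite way for 8 and not called for 14. For the 22 of them called higher, the second was called higher for 31.8% and lower for 27.3%, against 43.6% and 20.8% over the 2390 genes of the array with such calls. Probe sets lie at different places along a transcript, and these arrays differed in 3′ to 5′ signal as given above; whether that is related was not tested.

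**Figure D2:**
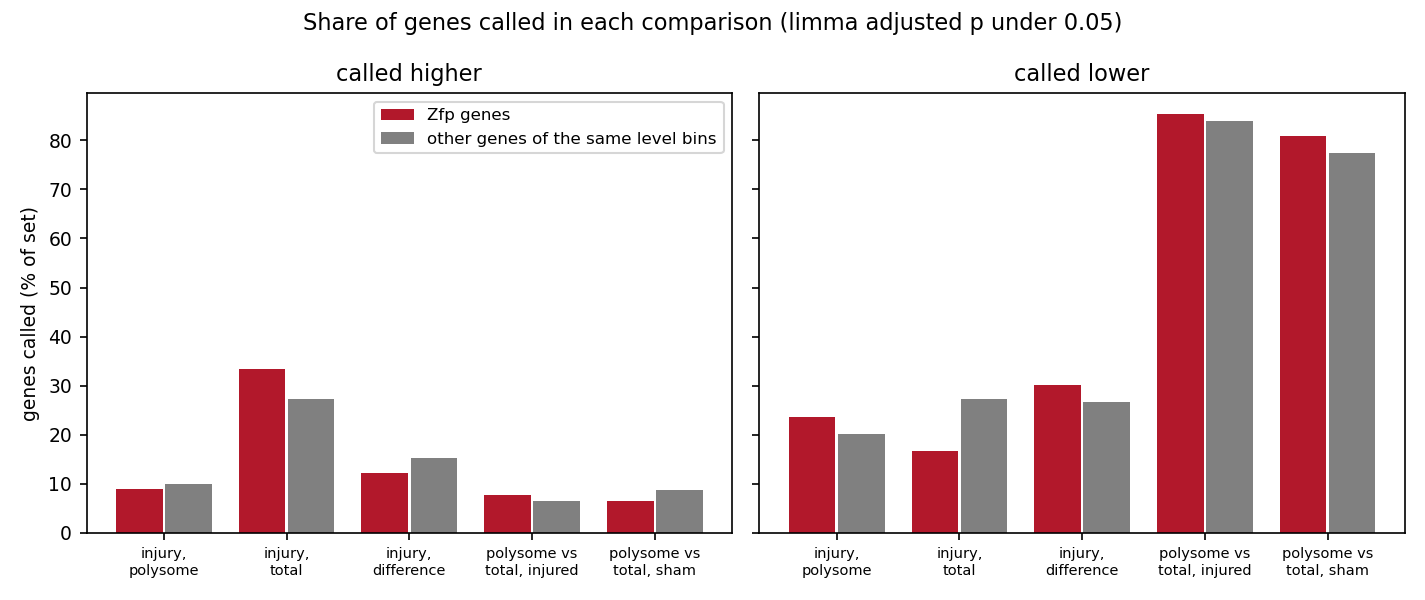
Percent of 156 Zfp genes (red) and of other genes in the same bins of mean signal (grey) called higher (left) and lower (right) in the 5 comparisons, limma adjusted p under 0.05, values as deposited. The bars of a pair lie within 11 percentage points of each other, the widest gap being the genes lower after injury in total RNA, 16.7% of Zfp genes against 27.3%; other scalings of the arrays change the heights, above all for polysome-bound against total RNA.

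On polysomes, where the question was which Zfp transcripts changed in the RNA bound by ribosomes, 14 Zfp genes were higher in injured than in sham cord and 37 lower, and 105 were not called. Of all genes 11.3% were called higher and 20.8% lower; of genes with the same signal 9.86% and 20.2%, against 8.97% and 23.7% of the Zfp genes. The median change was -0.04 (range -0.76 to 0.69), 0.02 below genes of the same signal, and the groups did not overlap for 62 Zfp genes (40.9% of all genes). Of the 34 Zfp genes with a mean below the highest absent control, 0 were called higher and 5 lower (14.7%, against 3.69% of other genes of that signal). The excess of falls depended on the scaling: 28 rose and 19 fell after quantile normalization over 12 arrays, 29 and 19 after normalization within each fraction, and 32 and 15 after centring each array on its median. All genes shifted likewise: the Zfp genes stood at 17.9% higher and 12.2% lower against 18.6% and 15.2% of all genes after quantile normalization over 12 arrays, and at 20.5% and 9.62% against 20.8% and 14.6% after centring. After normalization within each fraction they stood at 18.6% and 12.2%, against 19.2% and 15.7% of all genes. Without injured polysome replicate 1, 24 fell (15.4% against 17.7% of all genes).

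Zfp638 had the largest rise on polysomes as in total RNA, with 8.75, 8.81 and 8.63 in injured and 7.98, 7.97 and 8.15 in sham polysome-bound RNA. The gap of 0.69 (SE 0.07, limma adjusted p = 5.4e-06), or 1.62-fold, was several times the spread within either group, although the second probe set gave 0.16. Zfp106, an RNA-binding protein that mice need to keep motor neurons and muscle innervation, was at 9.73, 10.09 and 9.84 in injured and 9.53, 9.47 and 9.55 in sham polysome-bound RNA. It rose by 0.37 (SE 0.08, limma adjusted p = 0.0035) and by 0.42 in total RNA (adjusted p = 0.00082). With the mean of its 5 probe sets the values were 0.11 and 0.00 and neither was called. That mean includes probe sets not above the controls on any array. Zfp871 rose by 0.32 (adjusted p = 0.00067), at 9.76, 9.85 and 9.82 in injured and 9.48, 9.47 and 9.53 in sham polysome-bound RNA. Zfp410, an activator whose main known target is Chd4, rose by 0.30 (adjusted p = 0.001) and Zfp704 by 0.30 (adjusted p = 0.00084). Neither overlapped between groups; the _s_at probe set used for Zfp410 can match other transcripts, and the other gave 0.11 (adjusted p = 0.26). The mean of the Zfp704 probe sets, 0.12, was not called (adjusted p = 0.087).

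The falls on polysomes were led by Zfp386 and Zfp931. Zfp386 was at 6.63, 7.08 and 6.73 in injured polysome-bound RNA, against 7.56, 7.54 and 7.61 in sham polysome-bound RNA, and fell by 0.76 (SE 0.12, adjusted p = 0.00025). Its second probe set gave a fall of 0.44, but was above the controls on only 7 of the 12 arrays, so the size of that fall is uncertain. Zfp931 was at 7.95, 8.07 and 8.28 in injured and 8.79, 8.85 and 8.91 in sham polysome-bound RNA, and fell by 0.75 (SE 0.08, adjusted p = 1.4e-05); its only probe set is of the _x_at kind, which can match related transcripts. Zfp277, a partner of Polycomb repressive complexes, was at 7.44, 7.46 and 7.35 in injured and 8.01, 8.09 and 7.98 in sham polysome-bound RNA. Its fall of 0.61 (SE 0.06, adjusted p = 4e-06) stood beside a change of 0.02 in total RNA (adjusted p = 0.8). Zfp644, which binds the G9a and GLP histone methyltransferases, fell by 0.55 (SE 0.08, adjusted p = 8.8e-05), with 8.14, 8.37 and 8.19 in injured and 8.87, 8.66 and 8.80 in sham polysome-bound RNA. A second probe set of Zfp644 fell by 0.28. Zfp943 fell by 0.42 (SE 0.07, adjusted p = 0.00046), at 7.29, 7.47 and 7.58 in injured and 7.92, 7.83 and 7.86 in sham polysome-bound RNA.

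**Figure D3:**
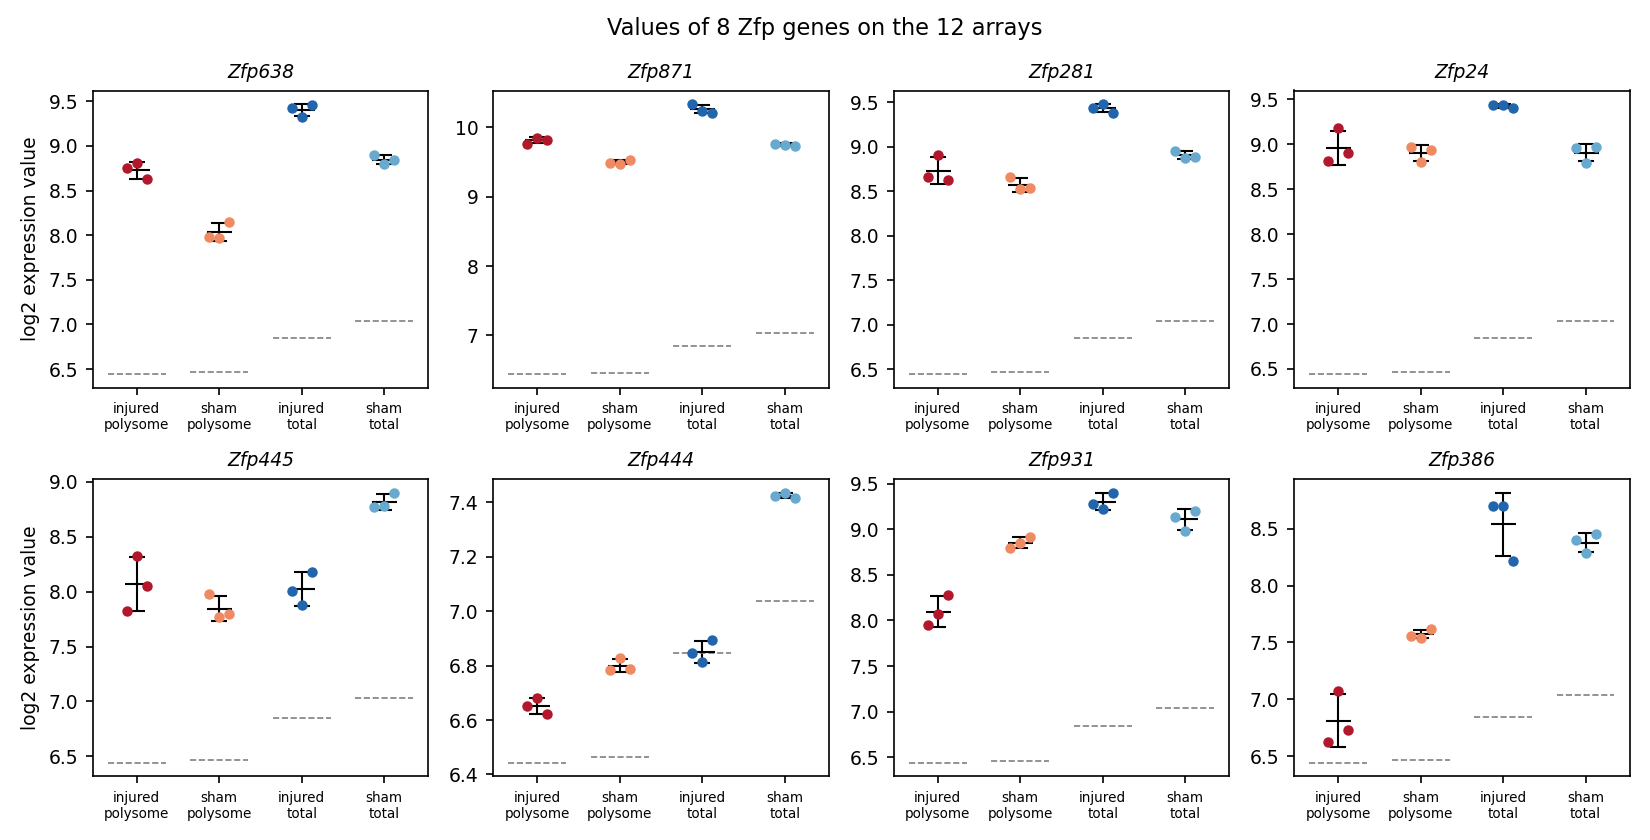
Log2 expression values of 8 Zfp genes on the 12 arrays, by group; points are arrays, bars the mean ± SD (n = 3), and dashed lines the mean of the highest absent-organism control in each group. Vertical axes differ between panels and do not start at 0. Zfp638 is higher after injury in both fractions, Zfp445 and Zfp444 are lower in injured than in sham total RNA, and Zfp931 and Zfp386 are lower in injured polysome-bound RNA.

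With both fractions side by side and values as deposited, 27 Zfp genes were called in both. The 10 higher in both (6.41%, against 8.12% of all genes) were Zfp35, Zfp106, Zfp275, Zfp410, Zfp423, Zfp521, Zfp622, Zfp638, Zfp703 and Zfp871. The 4 lower in both (2.56%, against 3.31%) were Zfp142, Zfp358, Zfp444 and Zfp787. A further 13 were higher in total RNA and lower on polysomes, namely Zfp37, Zfp61, Zfp62, Zfp101, Zfp207, Zfp330, Zfp639, Zfp644, Zfp654, Zfp868, Zfp942, Zfp943 and Zfp948, and 0 were lower in total RNA and higher on polysomes (0.694% of all genes). The 13 are 8.33% of the Zfp genes, against 7.03% of all genes and 4.9% of genes with the same signal. The pattern depended on the scaling: quantile normalization over 12 arrays left 4 of the 13, within each fraction 4 and centring 8, and leaving out 1 array left 8 to 13. Zfp207 was not called on polysomes under any of the 3 scalings, and Zfp62 was below the controls on every injured polysome array, where its fall is at least 1.08-fold. In total RNA alone 29 were called higher and 22 lower (18.6% and 14.1%, against 20.2% and 19.1% of all genes), on polysomes alone 4 higher and 20 lower (2.56% and 12.8%, against 2.46% and 10.4%), and 54 were called in neither (34.6%, against 28.6%). These groups follow the calls, and a call in 1 fraction does not by itself show a difference between the fractions.

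**Figure D4:**
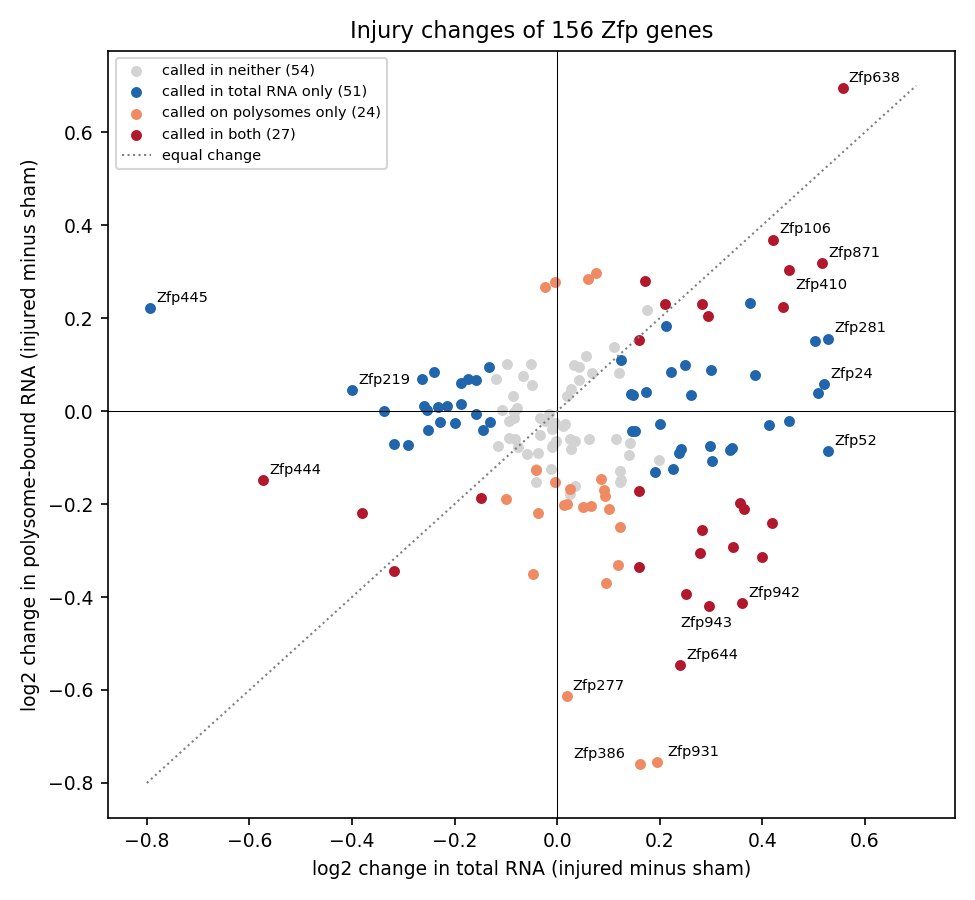
Log2 change after injury (injured minus sham) of 156 Zfp genes in total RNA (horizontal) and polysome-bound RNA (vertical), coloured by where the change was called, with the dotted line marking equal change. Zfp638 lies at 0.56 and 0.69; the lower right holds the 13 genes higher in total RNA and lower on polysomes, and Zfp445 lies alone at the left at -0.79. Values are as deposited, and centring the arrays would move all points together.

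The difference of these changes was tested directly, as the interaction of injury and fraction. The difference was positive (the change on polysomes above that in total RNA) for 19 Zfp genes and negative for 47; among all genes 45.9% had a called difference, 13.3% positive and 32.6% negative, and among genes of the same signal 15.3% and 26.6%, against 12.2% and 30.1% of the Zfp genes. The counts were 23 and 35 after quantile normalization over 12 arrays (14.7% and 22.4%, against 13.1% and 14.9% of all genes) and 31 and 36 after centring (19.9% and 23.1%, against 23.1% and 25.9%), and without sham polysome replicate 3 the positive count was 12 (7.69% against 11%). The median difference was -0.09, against -0.08 over all genes. Of the 53 Zfp genes with 2 or more probe sets, 22 had a called difference. The second brightest was called the same way for 8, the opposite way for 3 and not called for 11. For the 16 negative differences among them, the second was called negative for 37.5%, against 49.4% over all genes with such calls.

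Zfp445 had the largest positive difference, 1.01 (SE 0.15, limma adjusted p = 0.00017). On polysomes it was at 7.83, 8.32 and 8.05 in injured and 7.98, 7.77 and 7.79 in sham cord, which overlap (0.22, not called), while in total RNA it fell by 0.79. The polysome value was called as a rise under all 3 scalings (0.29 to 0.32) and without injured polysome replicate 1 (0.34, adjusted p = 0.015). Its second probe set gave a difference of -0.28, the opposite sign. Zfp219 (0.44, adjusted p = 0.0017), Zfp444 (0.43, adjusted p = 0.00013), Zfp777 (0.34, adjusted p = 0.0032) and Zfp92 (0.33, adjusted p = 0.0041) followed, all genes that fell in total RNA by more than their values on polysomes; Zfp92 was not above the controls on any sham polysome array, so its change on polysomes was not measured and its fitted difference is not a measured one. The negative differences were led by Zfp931 (-0.95, adjusted p = 6e-05), Zfp386 (-0.92, adjusted p = 0.00079), Zfp644 (-0.79, adjusted p = 0.0001), Zfp942 (-0.77, adjusted p = 8.2e-05) and Zfp943 (-0.72, adjusted p = 0.00013). Zfp942 was at 6.78, 6.84 and 6.88 in injured and 7.25, 7.19 and 7.30 in sham polysome-bound RNA, and at 8.47, 8.37 and 8.43 in injured and 8.16, 7.86 and 8.16 in sham total RNA. It therefore moved in opposite directions in the 2 fractions. So did Zfp644, which was at 9.65, 9.75 and 9.73 in injured and 9.55, 9.37 and 9.49 in sham total RNA and rose by 0.24 there (adjusted p = 0.015).

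Zfp genes with known roles were described by 4 lists, 1 of them for roles outside DNA binding. Of 11 genes whose products act on RNA, ribosomes, the spindle or SUMO, 10 were measured, 9 rose in total RNA and 0 fell, and 3 rose and 1 fell on polysomes; the list's median change in total RNA was 0.33, or 0.17 above genes of the same signal, and on polysomes 0.11, or 0.16 above. Of all genes 35.4% were called higher in total RNA and 11.3% on polysomes, the background for each list. Zfp326, a subunit of a complex that couples transcription elongation to splicing, rose by 0.51 in total RNA (limma adjusted p = 0.00026), with 9.02, 8.94 and 8.92 in injured and 8.51, 8.30 and 8.54 in sham cord, and was at 0.04 on polysomes (adjusted p = 0.79). Zfp451, a SUMO ligase, rose by 0.39 (adjusted p = 0.00054) and had 0.08 on polysomes (adjusted p = 0.47), where quantile normalization over 12 arrays gave a called 0.17 (adjusted p = 0.04). Zfp598, the ubiquitin ligase that marks collided ribosomes, rose by 0.24 (adjusted p = 0.0054), at 9.51, 9.45 and 9.47 in injured and 9.25, 9.26 and 9.21 in sham total RNA; on polysomes the value was -0.08 (adjusted p = 0.37). Zfp622, whose human counterpart helps to mature the large ribosomal subunit, rose by 0.21 in total RNA (adjusted p = 0.0084) and by 0.23 on polysomes (adjusted p = 0.0085). It is represented by an _x_at probe set; its other probe set gave 0.30 in total RNA and -0.12 on polysomes. Zfp346, which binds double-stranded RNA, rose by 0.38 (adjusted p = 0.039), and Zfp318 rose by 0.14 (adjusted p = 0.045). Zfp207, a spindle assembly factor, rose by 0.28 in total RNA (adjusted p = 0.037), whereas on polysomes it fell by 0.31 (adjusted p = 0.04). The total RNA calls of these 3 were lost without single arrays, at 0.20 to 0.41 for Zfp346, 0.11 to 0.16 for Zfp318 and 0.26 to 0.31 for Zfp207, and the polysome fall of Zfp207 was not called without most single arrays, and was -0.16 without injured polysome replicate 1 (adjusted p = 0.16). That fall was also not called under any of the 3 scalings (-0.23 to -0.20), with array weights (-0.23) or with the mean of its probe sets (-0.03). In total RNA some other probe sets of these 3 genes were called lower. The second of Zfp346 gave -0.40, above the controls on all 12 arrays. The other sets of Zfp318 gave -0.18 (called), 0.14 and -0.03. Those of Zfp207 gave 0.19, called higher, and -0.65, -0.37 and -0.18, called lower. The set with -0.37 was above the controls on 4 of the 12 arrays. The set with -0.18 was above them on none, so its value is not a measured change. As deposited, Zfp593 was not called on polysomes (0.14) or in total RNA (0.11), but quantile normalization over 12 arrays called a rise in both (0.20 and 0.21), and centring called one on polysomes (0.22). After quantile normalization over 12 arrays the total RNA rises of Zfp106 (0.14), Zfp207 (0.06), Zfp318 (0.06), Zfp346 (0.30) and Zfp598 (0.03) were not called and Zfp622 was at -0.09, while Zfp326, Zfp451 and Zfp638 kept their calls.

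Of 12 genes with roles in neural or glial cells 6 were measured, of which 4 rose and 0 fell in each fraction. The median change was 0.21 on polysomes, 0.28 above genes of the same signal, and 0.23 in total RNA, 0.09 above them. Zfp521, a factor of neural progenitors, was at 9.08, 9.01 and 9.02 in injured and 8.60, 8.56 and 8.63 in sham total RNA, and rose by 0.44 (limma adjusted p = 6e-05) there and by 0.22 on polysomes (adjusted p = 0.013). Zfp423, needed for cerebellar development, rose by 0.29 in total RNA (adjusted p = 0.00087) and by 0.20 on polysomes (adjusted p = 0.015). The polysome calls were lost for Zfp521 without sham polysome replicate 1 (0.19) and for Zfp423 without sham polysome replicate 3 (0.16). Zfp703, a corepressor-binding protein, rose by 0.28 on polysomes (adjusted p = 0.0052) and by 0.17 in total RNA (adjusted p = 0.042), a call lost when single arrays were left out (0.15 to 0.19) and after quantile normalization (-0.00). Zfp148 rose on polysomes by 0.27 (limma adjusted p = 0.0073), with -0.02 in total RNA (adjusted p = 0.77), where quantile normalization over 12 arrays called a fall (-0.22, adjusted p = 0.01). Its 4 probe sets did not give the same answer. Another gave -0.52 on polysomes and -0.45 in total RNA. The remaining sets gave 0.22 and 0.46 in total RNA, both called higher, and -0.06 and -0.15 on polysomes, neither called. Zfp24 had 0.06 on polysomes (adjusted p = 0.66). Zfp503, a relative of Zfp703 in developing neurons, was at 0.07 and 0.04 on polysomes and in total RNA, neither called.

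Among genes of imprinting, transposable elements and pluripotency, 5 of 6 were measured. Zfp281 rose and Zfp445 fell in total RNA as given above, and Zfp42, known as Rex1 in embryonic stem cells, was below the absent controls on all 12 arrays, so that its called fall in total RNA is not a measured change. Zfp57 (-0.11, adjusted p = 0.15) and Zfp568 (-0.05, adjusted p = 0.4), repressors in the early embryo, were not called in total RNA by limma, although the mean of the Zfp568 probe sets was (-0.096, adjusted p = 0.038). That mean includes a second probe set (-0.14) that was not above the controls on any array. Zfp57 was above the highest absent control on 1 injured and 0 sham total arrays, so its change there was not measured. As deposited 0 of the 5 were called on polysomes, while all 3 scalings called rises of Zfp281 (0.23 to 0.25) and Zfp445 there, and centring one of Zfp42 (0.15), which has no signal above the controls. Among 10 listed activators and repressors of single promoters or of neurotrophin signalling, 5 were measured, of which 3 rose and 2 fell in total RNA and 1 rose on polysomes. The median change in total RNA was 0.24, or 0.12 above genes of the same signal. Zfp410 was at 8.89, 8.94 and 8.82 in injured and 8.43, 8.42 and 8.44 in sham total RNA and rose by 0.45 (adjusted p = 2.6e-05). Zfp110, which binds the p75 neurotrophin receptor, rose by 0.30 (adjusted p = 0.0012), and on polysomes all 3 scalings called a rise of 0.17 to 0.195. Zfp746, a repressor of Ppargc1a, rose by 0.24 (adjusted p = 0.0069) but was at 0.13 after quantile normalization (adjusted p = 0.15). Zfp369, a relative of Zfp110, was below the absent controls on all 12 arrays, so that its called fall is not a measured change.

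The partners of KRAB zinc finger proteins were followed as a pathway of 18 genes, all of them on the array: in total RNA 13 rose and 2 fell, and on polysomes 8 rose and 2 fell. The median change was 0.24 in total RNA, or 0.06 above genes of the same signal, and 0.13 on polysomes, or 0.18 above them, beside 35.4% and 11.3% of all genes called higher. Trim28, the scaffold, was at 10.10, 10.05 and 10.07 in injured and 9.84, 9.80 and 9.84 in sham total RNA, higher by 0.25 (limma adjusted p = 0.0021), with 0.05 on polysomes (adjusted p = 0.54). After quantile normalization over 12 arrays or within fractions the total RNA value of Trim28 was -0.02, so its direction depended on the scaling. Setdb1, the histone methyltransferase, rose by 0.22 in total RNA (adjusted p = 0.0055) and 0.25 on polysomes (adjusted p = 0.0037); the total RNA call was lost after quantile normalization (0.08) and the mean of its probe sets was -0.09. Hdac2, a deacetylase, rose by 0.66 in total RNA (adjusted p = 2.9e-06) and had 0.15 on polysomes (adjusted p = 0.091), where all 3 scalings called a rise (0.23 to 0.24). Chd4, the remodeller of the same deacetylase complex and the target of Zfp410, was at 10.46, 10.42 and 10.31 in injured and 9.71, 9.74 and 9.78 in sham polysome-bound RNA. It rose by 0.65 there (adjusted p = 3e-06), against -0.00 in total RNA (adjusted p = 0.95), where quantile normalization over 12 arrays gave -0.28 (adjusted p = 0.0049). Cbx1, a heterochromatin protein, fell by 0.36 on polysomes (adjusted p = 0.0022); its rise of 0.20 in total RNA (adjusted p = 0.034) was lost without single arrays (0.17 to 0.20) and after quantile normalization (0.02).

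Polysome-bound RNA was then compared with total RNA within each kind of cord, to ask how Zfp mRNAs were distributed to polysomes. In injured cord 12 Zfp genes were higher on polysomes and 133 lower, against 11.4% and 77% of all genes and 6.53% and 83.9% of genes with the same signal. In sham cord 10 were higher and 126 lower, against 17.7% and 65.9% of all genes (83.6% in all) and 8.7% and 77.5% of genes with the same signal. The median was -0.50 in both cords, but the median of all genes was also low, at -0.40 in injured and -0.39 in sham cord, and the absent controls moved by -0.34 and -0.38. Relative to all genes the Zfp median was -0.10 in injured and -0.12 in sham cord, and relative to genes of the same signal -0.05 and -0.01. The groups did not overlap for 143 Zfp genes in injured cord (87% of all genes) and 139 in sham cord (88.4%). Because the arrays of the fractions differ in overall signal, the calls depend on the scaling: in injured cord 49 were higher and 59 lower after quantile normalization over 12 arrays (31.4% and 37.8%, against 37.4% and 28.8% of all genes) and 69 and 49 after centring (44.2% and 31.4%, against 56.2% and 20%). In sham cord they were 51 and 42 (32.7% and 26.9%, against 34.2% and 26.1%) and 58 and 48 (37.2% and 30.8%, against 46.9% and 17.8%).

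A few Zfp mRNAs stood well above the rest on polysomes in both cords. Zfp612 was at 11.36, 11.29 and 11.30 in polysome-bound and 10.38, 10.17 and 10.33 in total RNA of injured cord. It was higher on polysomes by 1.02 (SE 0.06, limma adjusted p = 6.8e-10), or 1.42 relative to the median of all genes, and as deposited was the only Zfp gene at least 2-fold higher; relative to the median of all genes Zfp428 (1.31) and Zfp622 (1.03) were too. In sham cord it was at 11.07, 11.03 and 11.01 in polysome-bound and 10.32, 10.29 and 10.30 in total RNA, higher by 0.74. After injury it rose on polysomes by 0.28 (adjusted p = 0.0028), with -0.00 in total RNA (adjusted p = 0.96), where quantile normalization over 12 arrays gave -0.30 (adjusted p = 0.0019). Zfp428 was higher by 0.91 in injured and 0.64 in sham cord, with 8.86, 8.97 and 8.98 in polysome-bound against 8.04, 7.94 and 8.10 in total RNA of injured cord. Zfp622 (0.62 in injured and 0.60 in sham cord) and Zfp574 (0.53 and 0.49) also exceeded total RNA in both cords, as did Zfp503 in injured cord (0.39) and Zfp64 in sham cord (0.41). For 3 of these the probe sets did not give the same answer: the other set of Zfp622 gave -0.29 in injured and 0.12 in sham cord, and the means over the probe sets in sham cord were -0.05 for Zfp574 and -0.09 for Zfp64. Zfp612 and Zfp428 have 1 probe set each.

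At the other end, by the brightest probe set of each gene, Zfp329 was the most depleted from polysomes in both cords. Some second probe sets were lower still. That of Zfp445, above the controls on all 12 arrays, gave -2.71 in injured and -2.43 in sham cord. That of Zfp386 gave fitted values of -2.24 and -1.72. It was above the controls on only 7 of the 12 arrays and its polysome signal lay near them, so these sizes are uncertain. Zfp329 was at 6.84, 6.90 and 6.85 in polysome-bound and 8.68, 8.70 and 8.74 in total RNA of injured cord, and at 7.22, 7.23 and 7.13 in polysome-bound and 8.63, 8.56 and 8.58 in total RNA of sham cord. The differences were -1.84 (SE 0.05, limma adjusted p = 7.7e-13) and -1.40 (adjusted p = 1.7e-11), or -1.44 and -1.01 relative to the median of all genes, whereas its second probe set gave -0.41 and -0.48. In injured cord Zfp386 (-1.73) and Zfp942 (-1.59) followed. Zfp62 and Zfp52 were not above the absent controls on any injured polysome array, so only a bound can be given: with each dim array set to its highest absent control, polysome-bound RNA was at least 2.83-fold lower than total RNA for Zfp62 (fitted adjusted p = 4.4e-12) and at least 2.42-fold lower for Zfp52 (adjusted p = 1.6e-12). The second probe set of Zfp62, of nearly the same signal and above the controls on 10 arrays, gave a smaller difference, -0.91 in injured and -0.16 in sham cord. In sham cord Zfp672 (-1.16), Zfp704 (-1.16), Zfp62 (-1.14) and Zfp106 (-0.997) followed Zfp329. Zfp106 is at the same time 1 of the 5 brightest Zfp genes, with a mean of 10.52 in sham total RNA and 9.52 in sham polysome-bound RNA, and genes of its signal had a median near 0.15 in sham cord.

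**Figure D5:**
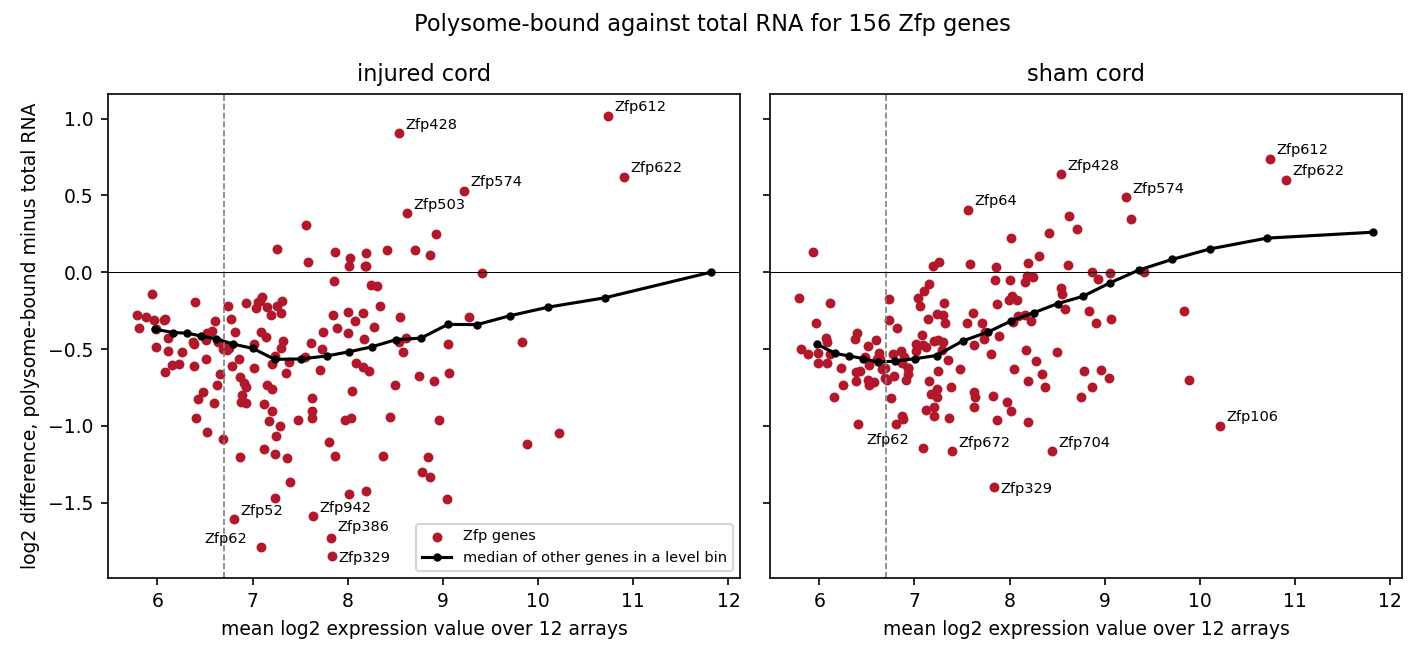
Log2 difference of polysome-bound minus total RNA for 156 Zfp genes (red) against their mean log2 expression value over 12 arrays, in injured (left) and sham cord (right), with the median of other genes in each of 20 bins of signal (black line) and the mean highest absent control (dashed). Zfp612 and Zfp428 lie above the line in both cords and Zfp329 below it; with arrays centred on their median all points would lie higher.

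Probe sets of the same gene mostly had the same sign here. As deposited, 77% of all genes in injured and 65.9% in sham cord were called lower on polysomes, so a shared fall says little about agreement. Of 49 Zfp genes with 2 or more probe sets called in injured cord, the second was called the same way for 42, and in sham cord for 40 of 47. For the 7 called higher in each cord, however, the second was called lower for 5 in injured and 4 in sham cord. Over all genes of the array called higher this was so for 47.6% in injured and 35.2% in sham cord, while for genes called lower the second was called lower in 88.9% and 91.1% of cases.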

How the data were processed

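RNA of 12 spinal cord samples was measured on Affymetrix arrays, with cRNA made, per the labels, from 5 µg of total or 3 µg of polysome-bound RNA in 1 cycle. The deposited table holds 1 log2 value per probe set and array; the log2 scale was read from its range of 5.26 to 14.65, and how the authors corrected and normalized them is not given in the sources used here. Values were used as deposited, without a filter on low values, and array number limits the precision.

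Of 22690 probe sets 20393 named 1 gene, 691 several and 1606 none, per the platform annotation. Genes were fitted with limma 3.58.1 (statmod 1.5.0, R 4.3.3), with a mean per group, 8 residual degrees of freedom and a trended prior, and p-values were two-sided and adjusted by the Benjamini-Hochberg method over 12394 genes, threshold 0.05, in 5 comparisons. SE is limma's. Genes of the same signal are other genes in the same of 20 equal bins of the mean over 12 arrays. No p-value was computed over the Zfp genes as a set. The procedure was tested on simulated data. The replicates are biological per the labels; separate animals are not stated.

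Named genes are, per comparison, the 5 largest rises and falls past the threshold without overlap between groups (overlap was not asked of the interaction) and above the absent controls on every array of a group, ranked relative to the median of all genes for the fraction comparisons, plus the 5 brightest and the listed genes. The Zfp genes and all lists were chosen with earlier results of these data known. The second probe sets and the genes called in both fractions were named after their values were seen. Alternatives were a low-value filter, 3 scalings, the mean of probe sets, exclusion of _s_at and _x_at probe sets, array weights, other ways to estimate the spread, replicate blocks and leaving out each array.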

Additional observations from a re-analysis of the deposited data

Results flagged for a closer look

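For 35 Zfp genes named above or among the other observations, the change after injury differed between polysome-bound and total RNA by the interaction test itself (limma, adjusted over all genes). The difference, polysome-bound minus total RNA on the log2 scale, was positive for Zfp445 (1.01), Zfp219 (0.44), Zfp444 (0.43), Zfp777 (0.34), Zfp92 (0.33), Zfp148 (0.29), Zfp612 (0.28), Zfp428 (0.27), Zfp42 (0.24) and Zfp704 (0.22). It was negative for Zfp931 (-0.95), Zfp386 (-0.92), Zfp644 (-0.79), Zfp942 (-0.77), Zfp943 (-0.72), Zfp948 (-0.71), Zfp639 (-0.66), Zfp62 (-0.65), Zfp330 (-0.63) and Zfp277 (-0.63). Smaller negative differences were those of Zfp52 (-0.61), Zfp207 (-0.58), Zfp654 (-0.57), Zfp37 (-0.55), Zfp101 (-0.54), Zfp868 (-0.49), Zfp326 (-0.47), Zfp24 (-0.46), Zfp329 (-0.45), Zfp91 (-0.42), Zfp281 (-0.37), Zfp61 (-0.33), Zfp746 (-0.33), Zfp598 (-0.32) and Zfp451 (-0.31). Zfp42 was below the absent controls on every array, Zfp52 on every polysome array, Zfp62 on every injured and Zfp92 on every sham polysome array, so their fitted differences are not measured ones. The differences of Zfp24, Zfp91, Zfp207, Zfp281, Zfp326, Zfp451, Zfp598 and Zfp746 were not called after quantile normalization, where they ranged over -0.27 to -0.01. Those of Zfp148 (0.24 to 0.28), Zfp428 (0.23 to 0.26), Zfp704 (0.19 to 0.22) and Zfp451 (-0.29 to -0.25) were lost when single arrays were left out. The other probe sets of Zfp148 gave negative differences, -0.08 (not called), -0.28 and -0.60 (both called). With the mean of probe sets the differences of Zfp101 and Zfp451 were -0.12 each and not called. The second probe sets of these genes were above the controls on 1 and 0 arrays. Those of Zfp148 (-0.17) and Zfp207 (0.12) turned in sign and were not called. The difference of Zfp91 turned to 0.29 and was called (limma adjusted p = 0.026). Among all genes 45.9% had a called difference, so such differences were common on these arrays, and the Gapdh 3′ minus 5′ difference was 2.83 in injured and 0.87 in sham polysome-bound RNA; its part was not tested.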

How the results depend on the processing

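Of the 15 counts and medians over the Zfp genes, 119 values under alternatives other than leaving out an array stayed close to those reported and 31 did not. Counts of genes higher and lower moved as follows. On polysomes after injury (14 and 37), quantile normalization over 12 arrays gave 28 and 19, within each fraction 29 and 19, and centring 32 and 15. In total RNA (52 and 26), both quantile normalizations gave 15 lower (9.62%, against 15% of all genes over 12 arrays and 14% within fractions). For the difference (19 and 47), centring gave 31 higher. For polysome-bound against total RNA in injured cord (12 and 133), quantile normalization over 12 arrays gave 49 and 59 and centring 69 and 49. In sham cord (10 and 126) these gave 51 and 42 and 58 and 48, and the mean of probe sets gave 5 higher (3.21%, against 13.2% of all genes).

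The median of the Zfp genes relative to all genes moved in total RNA (-0.00) to -0.047 with the filter, which kept 138 of them, 0.047 with quantile normalization over 12 arrays, 0.046 within fractions and 0.021 with the mean of probe sets. For the difference (-0.00) it was 0.052 with the filter, -0.047 with quantile normalization over 12 arrays and -0.049 within fractions. In injured cord (-0.10) it was -0.041 with quantile normalization over 12 arrays and -0.077 with the mean of probe sets. In sham cord (-0.12) it was -0.18 with the filter, -0.025 and -0.071 with quantile normalization over 12 arrays and within fractions, and -0.069 with the mean of probe sets. Leaving out each array gave 24 to 39 genes lower on polysomes after injury and 12 to 20 with a positive difference; the other counts stayed within 1.5 times. The direction of 20 values of single genes turned. With the mean of probe sets these were, for the difference, Zfp148 (-0.17), Zfp207 (0.12) and Zfp91 (0.29), on polysomes Zfp148 (-0.12) and Zfp91 (0.20), in total RNA Cbx1 (-0.085), Setdb1 (-0.093), Zfp207 (-0.15), Zfp346 (-0.013) and Zfp91 (-0.093), and in sham cord, polysome-bound against total RNA, Zfp574 (-0.049) and Zfp64 (-0.093). Without _s_at and _x_at probe sets Zfp622 turned on polysomes (-0.12) and in injured cord (-0.29). In total RNA under quantile normalization over 12 arrays and within fractions Trim28 (-0.019 and -0.018), Zfp622 (-0.092 and -0.089) and Zfp703 (-0.0021 and -0.002) turned. The cause was not tested. A further 28 values of single genes not called as deposited were called under an alternative other than leaving out an array, and 56 calls were lost. Signal near the absent controls limits the dim genes.

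Equal replicate numbers were not shown to pair samples: deviations of same-numbered total and polysome arrays correlated at -0.13 to 0.20. With the replicate number as a block, 14 genes rose and 35 fell on polysomes (8.97% and 22.4%, against 10.8% and 20% of all genes). In total RNA 51 rose and 25 fell (32.7% and 16%, against 34.7% and 22.5% of all genes). The call of Zfp318 in total RNA was lost, and no other call reported for a single gene was.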

Other observations

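Many Zfp genes lie in clusters on the chromosome. Of the 156, 92 had another gene with a Zfp symbol among the 4 nearest protein-coding genes of the RefSeq table and 64 did not. The neighbouring Zfp gene need not be among the 156. The clustered genes were dimmer, with a median of 7.20 against 7.99, and 56 of 92 against 46 of 64 exceeded the absent controls on all arrays. On polysomes after injury 4 of the clustered genes were called higher and 22 lower, against 10 higher and 15 lower of the others, beside 11.3% and 20.8% of all genes; relative to genes of the same signal the medians were -0.04 and 0.05. In total RNA the counts were 27 and 14 against 25 and 12, beside 35.4% and 23.1% of all genes, and the medians relative to genes of the same signal were 0.06 and 0.04. In sham cord 1 clustered gene was higher on polysomes than in total RNA and 78 were lower, against 9 and 48 of the others, beside 17.7% and 65.9% of all genes, with medians of -0.01 and -0.05 relative to genes of the same signal. These splits were made after seeing the data and were not tested, and the sets differ in signal.

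Zfp91, whose product is a ubiquitin ligase of the NF-kB pathway, was among the 5 brightest. Its brightest probe set was at 10.53, 10.51 and 10.49 in injured and 10.15, 10.16 and 10.20 in sham total RNA, higher by 0.34 (limma adjusted p = 0.003), a call lost after quantile normalization over 12 arrays (0.05). On polysomes it was at -0.08 (adjusted p = 0.51). A second probe set gave the opposite picture, -0.53 in total RNA and 0.55 on polysomes, and was 2.25 higher in polysome-bound than in total RNA of injured cord where the brightest was at -1.12.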
